A study of Mus musculus with 4 samples.

Results

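Wnt ligands, their receptors and the secreted proteins that modulate them were followed through single-cell RNA profiles of mouse skin in 2 models of type 2 dermatitis. The group was taken by gene symbol alone, with no measured value: every symbol of the gene table that names a Wnt, a Frizzled receptor (Fzd), Lrp5 or Lrp6, a Dickkopf (Dkk) or secreted Frizzled-related (Sfrp) inhibitor, Wif1, Notum, Apcdd1, an R-spondin (Rspo), Lgr4, Lgr5 or Lgr6, Znrf3, Rnf43, Axin1 or Axin2. This gave 53 of 32285 genes. They comprised 19 Wnt ligands, 10 Frizzled receptors, 2 LRP co-receptors, 11 secreted or membrane inhibitors, 7 R-spondins and their receptors, 2 E3 ligases and 2 Axins.

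There were 4 libraries, 1 for each group, each made from pooled neck and ear skin of 3 female C57BL/6J mice aged 6 to 8 weeks. In 2 groups the hapten oxazolone was used: mice were sensitised with 100 µL of a 3% solution, and from 7 days later 100 µL of a 1.0% solution was given every other day, with harvest at day 16 or at day 10. The labels do not say whether these harvest days count from sensitisation or from the first challenge. In the MC903 group, 1 nmol of MC903 (calcipotriol, a vitamin D analogue) in 100 µL was applied daily and skin was taken at day 9. The remaining group was untreated, and a library from vehicle-treated skin was not analysed here, so the effect of the agent cannot be told apart from those of solvent, shaving or handling. With 1 library per group nothing separates a treatment from the library it was measured in. No p-value is therefore given, and the 95% intervals in brackets cover counting error only. The series title names a basophil and fibroblast axis in type 2 skin inflammation, and the Wnt pathway is not named in it.

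Wnt proteins are lipid-modified ligands that bind a Frizzled receptor together with Lrp5 or Lrp6, which stabilises beta-catenin and switches on target genes such as Axin2. Znrf3 and Rnf43 remove Frizzled receptors from the cell surface, and R-spondins, bound to Lgr4, Lgr5 or Lgr6, block that removal. Dickkopf proteins bind the LRP co-receptors, Sfrp proteins and Wif1 bind Wnts, and Notum takes off the Wnt lipid. In skin, the pathway drives hair follicle formation and the growth phase of the hair cycle, in which the dermal papilla, a cluster of mesenchymal cells at the follicle base, signals to the keratinocytes around it.

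The promoters of 4 members that the results below turn on are shown here: Axin2, the feedback target of beta-catenin, Dkk2, an LRP-binding inhibitor, Fzd4, a receptor, and Wnt11, a ligand. Each sequence holds the 250 bases before a RefSeq start on GRCm38.p6, plus strand, 5′ to 3′. They lie at chr11:108920099-108920348 for Axin2, chr3:132085042-132085291 for Dkk2, chr7:89404116-89404365 for Fzd4 and chr7:98834862-98835111 for Wnt11. The whole RefSeq gene entries of Axin2, Dkk2 and Wnt11 begin earlier than the start used, at 108917828, 132085266 and 98835084. The Axin2 window thus lies inside its gene entry. Capitals mark the core letters of a TCF/LEF motif, TCAAAG, searched on both strands as TCAAAG or CTTTGA.
Axin2: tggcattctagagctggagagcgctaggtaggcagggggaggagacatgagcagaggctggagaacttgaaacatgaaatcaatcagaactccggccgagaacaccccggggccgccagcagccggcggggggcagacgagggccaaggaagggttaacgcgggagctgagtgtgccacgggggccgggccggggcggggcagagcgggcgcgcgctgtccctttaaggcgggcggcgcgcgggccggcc
Dkk2: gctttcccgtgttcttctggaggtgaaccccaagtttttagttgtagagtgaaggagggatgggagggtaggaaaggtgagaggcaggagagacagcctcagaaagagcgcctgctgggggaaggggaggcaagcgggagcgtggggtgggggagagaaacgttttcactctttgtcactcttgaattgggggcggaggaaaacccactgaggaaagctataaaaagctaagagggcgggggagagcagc
Fzd4: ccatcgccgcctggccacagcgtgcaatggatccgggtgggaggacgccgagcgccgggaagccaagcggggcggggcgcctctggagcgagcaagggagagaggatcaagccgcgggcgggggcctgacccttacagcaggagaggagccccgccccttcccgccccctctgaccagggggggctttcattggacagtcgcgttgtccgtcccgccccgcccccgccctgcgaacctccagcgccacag
Wnt11: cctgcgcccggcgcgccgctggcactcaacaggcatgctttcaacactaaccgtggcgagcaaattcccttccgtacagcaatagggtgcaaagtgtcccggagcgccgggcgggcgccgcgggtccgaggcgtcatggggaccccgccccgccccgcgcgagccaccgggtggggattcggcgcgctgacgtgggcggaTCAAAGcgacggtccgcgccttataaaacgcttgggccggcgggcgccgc
Of these sequences only that of Wnt11 held the letters, 50 bases before the start, and a second RefSeq start of Wnt11 had none in its window. The letters were found in 4 of 36 member windows (11.1%; Dkk1, Fzd1, Wnt5b and Wnt11), against 4544 of 32851 windows over all genes (13.8%). GC content was 69.2% for Axin2, 55.6% for Dkk2, 72.8% for Fzd4 and 70.8% for Wnt11. The median was 66.8% over the member windows, against 52.4% over all windows. A match describes these letters and no binding.

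After filtering, 7408 cells remained at oxazolone day 16, 7806 at oxazolone day 10, 3711 at MC903 day 9 and 7227 in untreated skin. Before filtering, each library held 73054242 to 119717836 unique molecular identifiers (UMIs) over all its barcodes. All 53 members had a UMI, and 47 had at least 30. Dkk1, Dkk4, Wnt1, Wnt7a, Wnt8b and Wnt9b had 5 to 28 UMIs in the whole series and are not described further. Members took 0.0614% of the UMIs of kept cells at oxazolone day 16, 0.162% at oxazolone day 10, 0.152% at MC903 day 9 and 0.179% in untreated skin. There were 67 barcodes, of 28847, that occurred in more than 1 library.

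Cells were clustered without the members and clusters were named from marker genes. Fibroblast-like cells comprised clusters A7, A10, A14 and A16, dermal papilla-like cells A18 and A24, and keratinocyte-like cells A12, A13 and A17. Libraries filled these clusters unequally. A7 held 96.5% of fibroblast-like cells at oxazolone day 16, 77.0% at oxazolone day 10, 8.27% at MC903 day 9 and 23.6% in untreated skin. A10 held 960 cells at MC903 day 9 and 47 in untreated skin, and A16 held 664 untreated cells and 5 others, so that either may be a library and not a cell type. A24 held 70.0% of dermal papilla-like cells at oxazolone day 16, 54.9% at oxazolone day 10, 10.4% at MC903 day 9 and 6.83% in untreated skin, with A18 holding the rest. A17 held 36 cells at oxazolone day 16, 600 at oxazolone day 10 and 6 elsewhere, and A13 held 817 untreated cells of 840. MC903 day 9 had 9 keratinocyte-like cells, too few to describe. Levels are therefore given within clusters first, as UMIs of a gene per 1000000 UMIs of those cells (CPM), and a ratio is given where both libraries had at least 50 cells. A ratio of at least 2-fold among genes with 30 or more UMIs in the pair is called higher or lower, and percentages of all measured genes called in the same way stand beside the counts. In whole tissue digests of this kind a higher class level cannot be told apart from a different mix of cells within the class.

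Several non-Wnt differences moved with the groups. In A7, summed levels of 6 neutrophil markers were 2025 CPM at oxazolone day 16, 152.8 at oxazolone day 10, 32.92 at MC903 day 9 and 1.05 in untreated skin. UMIs of at least 3 of those markers were found in 158 of 331, 48 of 315, 1 of 92 and 0 of 411 A7 cells of these libraries. Of 12 dissociation-stress genes, such as Fos and Egr1, 8 were lower at oxazolone day 10 than in untreated A7 cells and none higher (8.22% and 9.58% of all genes). In the papilla-like class 11 were lower in the same pair (5.68% of all genes). Libraries of oxazolone day 16 and MC903 day 9 carried the file header of Cell Ranger 8.0.0, and those of oxazolone day 10 and untreated skin that of 7.2.0. The part of any of these in the results was not tested, except that results without cells carrying neutrophil markers were computed.

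**Figure D1:**
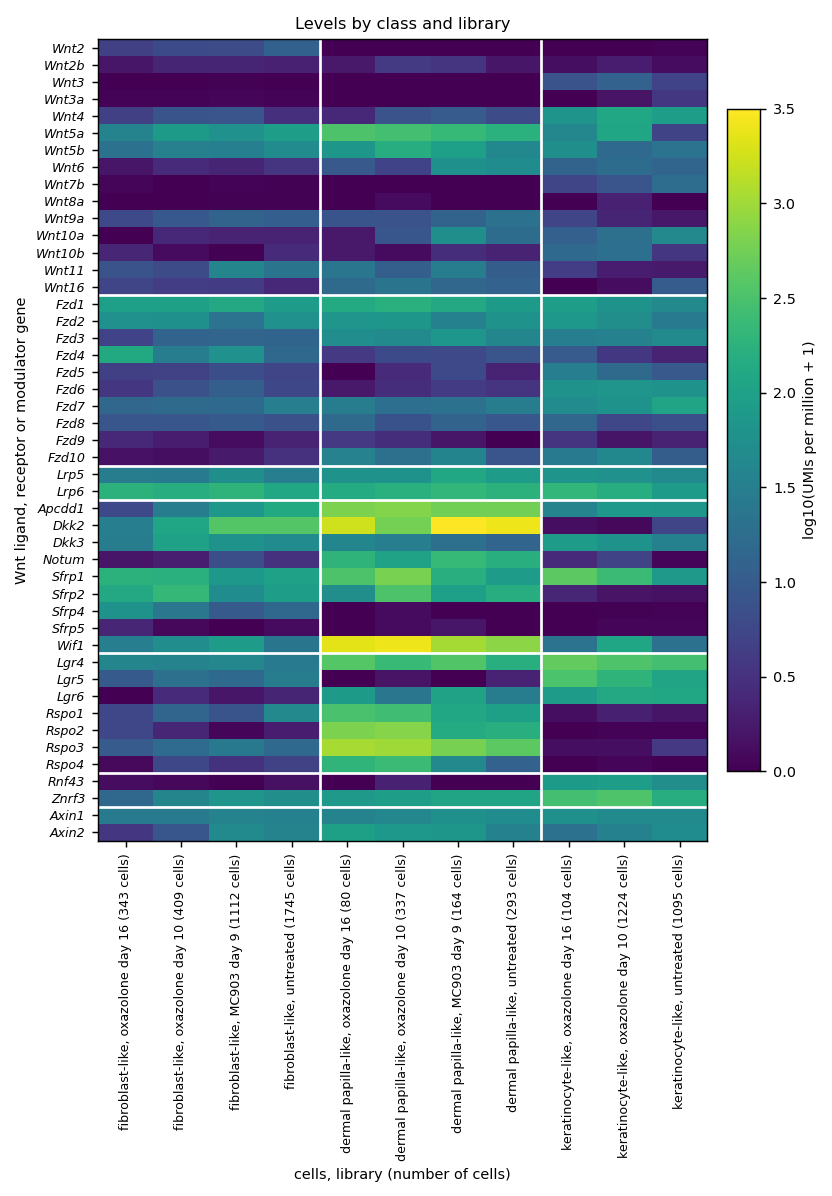
Heat map of the 47 members with at least 30 UMIs (rows, grouped by role) in fibroblast-like, dermal papilla-like and keratinocyte-like cells of each library with at least 50 such cells (columns); colour is log10 of CPM plus 1. R-spondin, Wif1 and Dkk2 signal is strong in the dermal papilla-like columns, and Lgr4, Lgr5, Lgr6 and Znrf3 signal in the keratinocyte-like columns.

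The members' transcripts were divided among the cell classes in a way that differed between libraries. Dermal papilla-like cells held 83.1% of Dkk2 UMIs at oxazolone day 16, 59.8% at oxazolone day 10, 32.0% at MC903 day 9 and 32.1% in untreated skin, and fibroblast-like cells held 13%, 36.8%, 65.3% and 65.0% of them. For Rspo1 the papilla-like share was 82.3%, 81.0%, 27.6% and 12.7% in the same order, and the fibroblast-like share in untreated skin was 81.8%. Rspo2 UMIs came mostly from dermal papilla-like cells in every library, at 90.5%, 98.7%, 92.1% and 88.2%. Keratinocyte-like cells held 81.8% of Lgr5 UMIs at oxazolone day 16, 94.3% at oxazolone day 10 and 66.6% in untreated skin, and 36.9%, 81.5% and 54.5% of Wnt4 UMIs. These shares follow the number of cells captured as well as the level in each cell. Outside the 3 classes, perichondrium-like or chondrocyte-like cells, named from markers of cartilage and the layer around it, held 64.1% of Wif1 UMIs at oxazolone day 16, 63.0% at oxazolone day 10, 66.4% at MC903 day 9 and 93.5% in untreated skin. In immune clusters the Wif1 level was 2.37, 10.2, 14.6 and 14.4 CPM, and low levels of Wif1 in other cells are to be read against it.

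The fibroblast-like cluster A7 was the one with over 50 cells in every library. It was led by Cxcl5, Saa3, Ptx3, Timp1 and Il33, and its 7 fibroblast markers (Col1a1 to Dpt) summed to 30260, 42310, 37540 and 32410 CPM at oxazolone day 16, oxazolone day 10, MC903 day 9 and in untreated skin. The ligands Wnt2 and Wnt11 were lower in both oxazolone libraries, Rspo3 was higher in both, and the receptor Fzd4 was higher at day 16. Against untreated cells, 5 members were higher and 12 lower of 34 measured at oxazolone day 16, where 9.38% and 10.9% of all genes were so called. At oxazolone day 10, 5 were higher and 5 lower of 33 (9.58% and 8.22% of all genes). At MC903 day 9, 2 were higher and 8 lower of 30 (5.99% and 8.08% of all genes). The median log2 ratio over measured members was -0.34, -0.02 and -0.07, against -0.18, -0.08 and -0.04 over all genes. Between day 16 and day 10, 3 were higher and 9 lower of 32 (5.15% and 7.19% of all genes).

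Among the ligands of A7, Wnt2, which acts through beta-catenin, was at 3.71 CPM at oxazolone day 16, 5.73 at oxazolone day 10, 25.8 at MC903 day 9 and 39.2 in untreated skin. Its log2 ratio to untreated was -3.40 [-3.89, -2.94] at day 16, -2.77 [-3.22, -2.35] at day 10 and -0.60 in the MC903 library, where it was not called. The MC903 value thus lay near the untreated value and both oxazolone values far below it. Wnt11, a ligand known chiefly for beta-catenin-independent signalling, was at 5.32, 3.75, 9.16 and 20.1 CPM, with log2 ratios of -1.92 [-2.38, -1.47], -2.42 [-2.99, -1.88] and -1.14 [-1.80, -0.52]. All 3 treated libraries were below the untreated one, but in immune clusters Wnt11 was likewise at 1.77, 1.84, 10.4 and 14.9 CPM. Wnt10b, a ligand linked to the hair growth phase, had 17, 3, 0 and 37 UMIs, and its log2 ratio was -2.24 at day 16 and -4.45 at day 10. For the MC903 library, with no Wnt10b UMI, the level was at least 6.36-fold lower when 3 UMIs are put in its place. The Wnt10b level in immune clusters of untreated skin was 6.04 CPM, close to the 6.48 CPM of A7. In the opposite direction Wnt16 was at 4.51, 3.56, 2.38 and 0.875 CPM, with log2 ratios of 2.37 [1.06, 4.04] and 2.02 [0.67, 3.73] in the oxazolone libraries, on 5 UMIs in untreated cells. Wnt5a, the main beta-catenin-independent ligand, was at 34.2, 80.7, 60.1 and 50.8 CPM. It did not reach 2-fold against untreated cells in any treated library, while the day 16 level was below that of day 10 by a log2 ratio of -1.24 [-1.41, -1.07]. Wnt4 was higher at day 10 (7.51 CPM, against 2.80 in untreated skin) and Wnt9a lower at day 16 (4.67 CPM, against 13.5 in untreated skin, where immune clusters had 11.6). With each cell weighing the same, the Wnt5a ratio between day 16 and day 10 was -0.90, under 2-fold.

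Of the receptors in A7, Fzd4 was at 134 CPM at oxazolone day 16, 32.5 at oxazolone day 10, 83.5 at MC903 day 9 and 41.8 in untreated skin. The log2 ratio was 1.68 [1.49, 1.89] for day 16 against untreated and 2.05 [1.88, 2.22] for day 16 against day 10. The day 16 library stood highest, the MC903 library reached 1.00 without being called, and the day 10 level was slightly below the untreated one. With each cell thinned to 2000 UMIs, a Fzd4 UMI was found in 18.7%, 5.81%, 15.4% and 7.02% of A7 cells, and in 69.8%, 40.6%, 57.6% and 31.6% without thinning. Median depths were 36474, 32436, 33018.5 and 13377 UMIs in A7, against 8481, 7391, 9927 and 6943 in immune clusters, where the thinned Fzd4 shares were 0.221%, 0.253%, 0.792% and 0.191%. Fzd7 was lower at day 16 (12.7 CPM) and MC903 day 9 (9.84 CPM), against 28.9 CPM in untreated cells, with log2 ratios of -1.18 and -1.55. The other broadly expressed receptors moved little: Fzd1 was at 92.2, 91.8, 107 and 70.0 CPM, Lrp6 at 174, 154, 192 and 157, and Lrp5 at 29.2, 27.5, 28.9 and 28.5.

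Among the inhibitors of A7, Dkk2 was at 25.5 CPM at oxazolone day 16, 60.6 at oxazolone day 10, 32.2 at MC903 day 9 and 68.1 in untreated skin. Its log2 ratio to untreated was -1.42 [-1.64, -1.20] at day 16 and -1.08 [-1.42, -0.75] at MC903 day 9, and the day 10 value lay close to the untreated one. Dkk3, a relative of the Dickkopf inhibitors, was at 28.6, 98.1, 106 and 47.8 CPM, so that day 10 (1.04 [0.84, 1.24]) and MC903 (1.15 [0.91, 1.39]) were above untreated and day 16 was below it without reaching 2-fold. Sfrp4 was at 62.0, 27.0, 23.8 and 51.6 CPM. It was higher at day 16 than at day 10 by a log2 ratio of 1.20 [1.00, 1.41] and lower at MC903 day 9 than in untreated skin by -1.12 [-1.52, -0.74]. With each cell weighing the same, the MC903 ratios of Dkk3 and Sfrp4 were 0.82 and -0.77, under 2-fold. Sfrp1 (178, 188, 108 and 186 CPM) and Sfrp2 (131, 244, 228 and 148 CPM) were not called. Apcdd1, a membrane inhibitor that is itself induced by the pathway, was at 4.27, 8.20, 10.2 and 18.4 CPM, with log2 ratios of -2.11 at day 16 and -1.16 at day 10. Counted as a mean over cells in place of a sum, those ratios were -0.25 and -0.79, so that the Apcdd1 calls depend on how cells are weighted.

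R-spondins and their partners made up the rest of A7. Rspo3 was at 8.94 CPM at oxazolone day 16, 12.4 at oxazolone day 10, 5.43 at MC903 day 9 and 1.75 in untreated skin, the last from 10 UMIs. Its log2 ratio was 2.35 [1.42, 3.45] at day 16 and 2.83 [1.90, 3.93] at day 10, and the MC903 pair was not measured. Lgr5, an R-spondin receptor best known as a stem cell marker, was at 8.86, 19.0, 3.05 and 27.5 CPM, with a log2 ratio of -1.63 [-2.0, -1.27] at day 16 and -3.17 [-4.32, -2.21] at MC903 day 9, where it had 9 UMIs. Znrf3, the E3 ligase and a target of the pathway, was at 14.1, 35.9, 45.5 and 48.5 CPM, lower at day 16 by a log2 ratio of -1.78 [-2.06, -1.50]. Axin2 was at 2.58, 4.84, 3.73 and 9.10 CPM, with ratios of -1.82 [-2.50, -1.16] at day 16 and -1.29 [-2.37, -0.33] at MC903 day 9. The untreated library stood highest for Lgr5, Znrf3 and Axin2. In immune clusters Znrf3 was at 11.2, 35.6, 60.2 and 71.0 CPM and Axin2 at 1.73, 2.10, 14.1 and 12.7 CPM. In MC903 and untreated skin A7 thus lay below the immune clusters for both genes, and the immune clusters too had their lowest level of both genes at day 16. Without cells carrying neutrophil markers, 14 of the 17 calls at day 16 were kept, and Wif1 (0.97) and Rspo2 (-0.62) were no longer among them, while the ratio of Sfrp4 between day 16 and day 10 was 0.65.

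**Figure D2:**
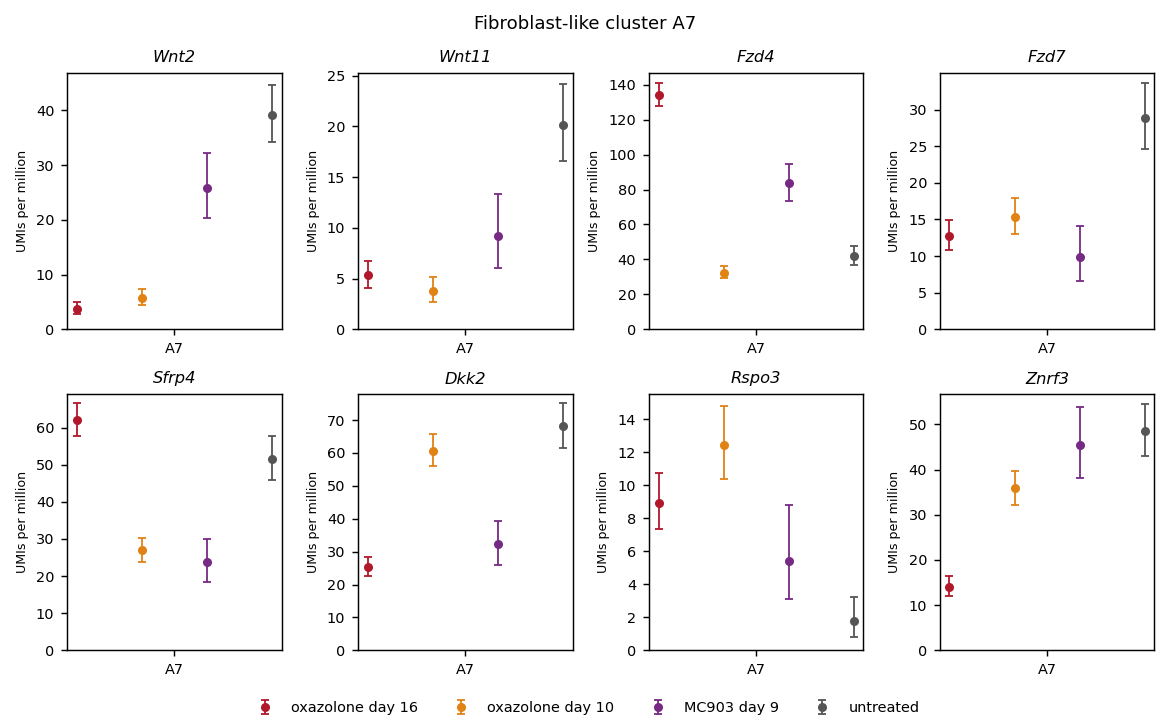
Levels of 8 members in fibroblast-like cluster A7 (CPM, 1 point per library, bars are 95% Poisson intervals). Wnt2 and Wnt11 were lowest in the oxazolone libraries, Fzd4 was highest at oxazolone day 16 and Rspo3 was lowest in untreated skin.

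Cluster A14, led by Fmod, Postn, Tnmd, Chrm2 and Hapln1, gave a second fibroblast-like comparison, with 91 cells at oxazolone day 10, 56 at MC903 day 9 and 623 in untreated skin, and 10 at day 16. Wif1, the Wnt-binding inhibitor, was higher and Sfrp2 lower in both treated libraries, and Apcdd1 and Fzd1 were higher at MC903 day 9. At day 10, 4 members were higher and 6 lower of 32 measured (4.8% and 9.38% of all genes), and at MC903 day 9, 6 were higher and 4 lower of 30 (4.89% and 10.5%). Wif1 was at 208 CPM at day 10, 368 at MC903 day 9 and 42.8 in untreated skin, with log2 ratios of 2.28 [2.05, 2.51] and 3.10 [2.90, 3.31]. Sfrp2 was at 29.3, 61.9 and 149 CPM in the same order, with log2 ratios of -2.35 [-2.82, -1.92] and -1.27 [-1.60, -0.96]. The untreated library was thus lowest for Wif1 and highest for Sfrp2. Apcdd1 was at 173, 374 and 106 CPM, and Fzd1 at 137, 410 and 112 CPM, with log2 ratios of 1.83 [1.67, 1.98] and 1.87 [1.72, 2.02] at MC903 day 9. Rspo1 was at 33.3, 6.95 and 28.0 CPM, lower at MC903 day 9 by a ratio of -2.01 on 10 UMIs. Dkk2 was at 490, 1014 and 704 CPM and was not called in either pair. Perichondrium markers in A14 summed to 173.2, 1257 and 206.4 CPM and dermal sheath markers to 2704, 1170 and 859.9 CPM, and their part in the Wif1 values was not tested.

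The remaining fibroblast-like clusters were described in 1 library each. A10, led by Cxcl13, Inmt, C3, Prg4 and the neutrophil gene S100a9, had Dkk2 at 374 CPM, Wif1 at 73.7, Apcdd1 at 61.4, Wnt5a at 59.0, Fzd4 at 57.7, Axin2 at 47.8 and Wnt11 at 42.3 at MC903 day 9, where its neutrophil markers summed to 1956 CPM. In A16, led by Cdh4, Zfp536, Sv2b, Efemp1 and Cd34, the untreated cells had Dkk2 at 276 CPM, Apcdd1 at 233, Sfrp1 at 117, Wnt5a at 104, Rspo1 at 79.5 and Axin2 at 39.9. In A7 of the same untreated library Rspo1 was at 6.13 CPM and Axin2 at 9.10, so fibroblast-like clusters of 1 library differed in these genes by more than A7 did between libraries.

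Over the whole fibroblast-like class, whose cells were mostly A7 in the oxazolone libraries, A10 at MC903 day 9 and A16, A14 and A7 in untreated skin, 4 members were higher and 18 lower of 40 at oxazolone day 16 (9.79% and 14.3% of all genes). At day 10, 6 were higher and 10 lower of 41 (8.79% and 7.87%), and at MC903 day 9, 6 were higher and 8 lower of 40 (11.1% and 9.89%). Between day 16 and day 10, 3 were higher and 11 lower of 33 (5.25% and 7.99%). Dkk2 was at 30.8 CPM at day 16, 116 at day 10, 370 at MC903 day 9 and 366 in untreated skin, and Apcdd1 at 4.84, 29.6, 71.5 and 135. Their log2 ratios of -3.57 and -4.80 at day 16 were larger than the -1.42 and -2.11 within A7. Fzd4 was at 132, 28.7, 57.7 and 14 CPM, with a ratio of 3.24 [3.07, 3.41] at day 16 and 2.04 [1.87, 2.21] at MC903 day 9. At day 10 the Fzd4 ratio was 1.03, and it was 0.76 without cells carrying neutrophil markers. Rspo1 was at 4.60, 12.7, 7.09 and 43.2 CPM, lower in all 3 treated libraries with ratios of -3.23, -1.77 and -2.61, although within A7 it was not called against untreated cells. Wif1, at 30.1, 51.2, 82.4 and 22.1 CPM, was called higher at day 10 and at MC903 day 9, but when fibroblasts were chosen by their markers in place of clusters the ratios were -0.04 and -0.93.

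**Figure D3:**
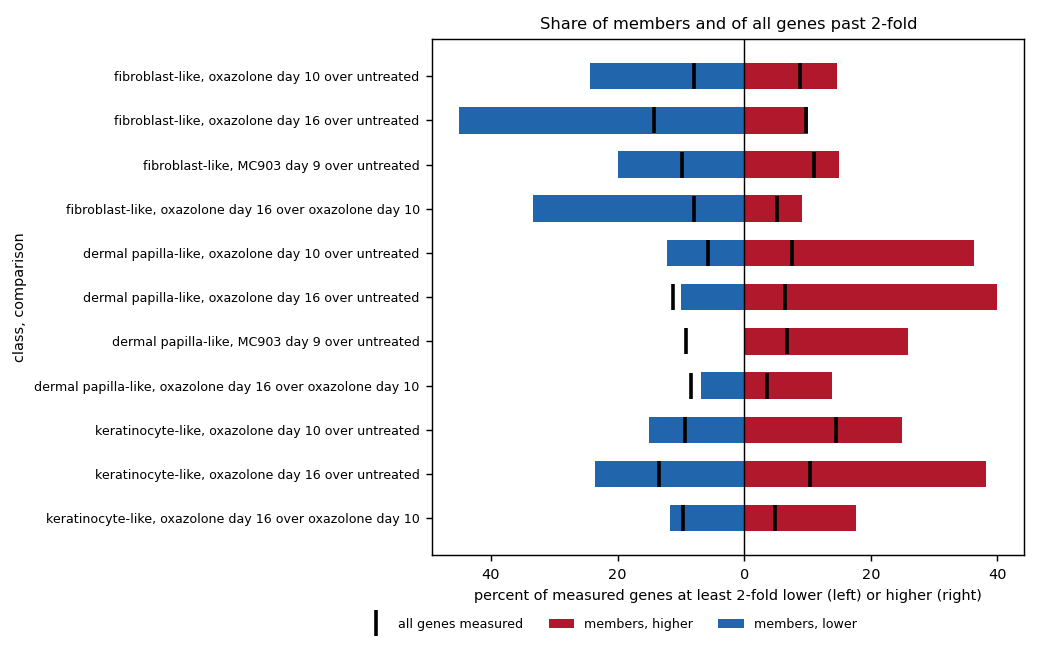
Percent of measured members at least 2-fold lower (blue, left) or higher (red, right) in each class and comparison, with black marks at the percent of all measured genes called in the same way. In dermal papilla-like cells against untreated cells 8 to 12 members were higher, and in fibroblast-like cells at oxazolone day 16 there were 18 lower.

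The dermal papilla-like class held 80 cells at oxazolone day 16, 337 at oxazolone day 10, 164 at MC903 day 9 and 293 in untreated skin, in clusters of different character. A24, led by Dcc, Lingo2, Kcnd2, Sostdc1 and Corin, had the 11 papilla markers at 5785, 9403, 5691 and 6660 CPM. A18, led by Gpc5, Slc26a7, Lef1, Rasd1 and Pappa2, had them at 2067, 1820, 2146 and 2651 CPM, so A18 matched the papilla set less closely. A24 comprised 56 cells at day 16, 185 at day 10, 17 at MC903 day 9 and 20 in untreated skin, and only the day 16 and day 10 libraries are compared in it. Rspo2 and Rspo4 were among the 10 genes that set A24 apart from all other cells and Dkk2 among those of A18, so their presence there describes the clusters.

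Between the oxazolone times, Dkk2 and Lgr6 were higher in A24 at day 16, Sfrp2 and Wnt5b were lower, and the R-spondins were not called. These were the only calls among 26 measured members, 2 higher and 2 lower, where 4.62% and 9.84% of all genes were called, so their number was near that over all genes. Dkk2 was at 1824 CPM at day 16 and 104 CPM at day 10, a log2 ratio of 4.14 [3.95, 4.33]. A Dkk2 UMI was found in 62.5% of A24 cells at day 16 and 12.2% at day 10 after thinning, and in 78.6% and 29.2% before it. In immune clusters the thinned shares were 0.136% and 0.207%, and median depths were 16642.5 and 13743 UMIs in A24, against 8481 and 7391 in immune clusters. The A24 cells of MC903 day 9 had 2198 CPM and those of untreated skin 50.7 CPM, on 17 and 20 cells. Dkk2 was thus high in the day 16 and MC903 cells and low in the day 10 and untreated ones. Lgr6, an R-spondin receptor, was at 71.8 CPM at day 16 and 8.99 at day 10 (3.00 [2.30, 3.74]), and at 132 CPM in MC903 cells and 0 in untreated ones. For both genes this split of libraries was also that of the Cell Ranger versions in the file headers (8.0.0 and 7.2.0), whose part was not tested. Sfrp2 was at 64.8 CPM at day 16 and 448 at day 10 (-2.79 [-3.18, -2.43]), and Wnt5b, a beta-catenin-independent ligand, at 62.7 and 180 CPM (-1.52 [-1.93, -1.14]). Neutrophil markers in A24 summed to 4355 CPM at day 16 and 410.1 at day 10, and 32.1% and 3.78% of its cells held at least 3 of them. Without those cells 38 and 178 were left, too few at day 16 for a ratio.

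The R-spondins of A24 were at similar levels at both times. Rspo1 was at 375 CPM at day 16 and 344 at day 10, Rspo2 at 892 and 1050, Rspo3 at 1396 and 1237 and Rspo4 at 266 and 351. In the few untreated A24 cells Rspo1 was at 343 CPM, Rspo2 at 723 and Rspo3 at 964, close to the oxazolone values, while Rspo4 was at 33.8 [14.6, 66.7] CPM, on 8 UMIs. Wif1 was at 2310, 3402, 1853 and 3442 CPM at day 16, day 10, MC903 day 9 and in untreated skin, and Notum at 213, 128, 152 and 140. Among the receptors, Lgr4 was at 413 CPM at day 16 and 232 at day 10, and Fzd1 at 116 and 205. Axin2 was at 114 and 85.6 CPM and Apcdd1 at 628 and 627 CPM in the oxazolone libraries, against 16.9 and 169 CPM in the untreated cells, for which no ratio is given.

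A18 could be compared at day 10 (152 cells) and MC903 day 9 (147 cells) with untreated skin (273 cells), and day 16 had 24 cells. Wif1 and Wnt11 were higher in both treated libraries. Notum, Sfrp2, Wnt6 and Fzd7 were lower and Wnt16 higher at day 10, and Wnt10a and Lgr6 were higher and Rspo2 lower at MC903 day 9. At day 10, 3 members were higher and 4 lower of 28 (3.48% and 4.88% of all genes), and at MC903 day 9, 4 were higher and 1 lower of 28 (7.29% and 10.4%). Wif1 was at 703 CPM at day 10, 832 at MC903 day 9 and 311 in untreated skin, with log2 ratios of 1.18 [1.01, 1.35] and 1.42 [1.26, 1.59]. Wnt11 was at 26.6, 30.5 and 11.5 CPM, with log2 ratios of 1.21 and 1.41, and Sfrp2 at 64.7, 94.0 and 169 CPM, lower at day 10 by -1.39 [-1.79, -1.0]. With each cell weighing the same, the day 10 ratios of Wif1 and Sfrp2 were 0.88 and -0.93 and those of Wnt11 were 0.63 and 0.72, all under 2-fold. Notum, the Wnt deacylase, was at 42.5, 236 and 160 CPM, lower at day 10 by a ratio of -1.91 [-2.39, -1.46]. Wnt6 was at 10.6, 69.7 and 56.2 CPM, lower at day 10 by -2.40 [-3.42, -1.52], and Wnt16 at 47.0, 16.4 and 9.37 CPM, higher at day 10 by 2.33 [1.43, 3.33]. For these 3 genes the MC903 value was nearer the untreated one than the day 10 value was. Wnt10a, a ligand of hair follicle and tooth development, was at 15.1, 69.7 and 18.7 CPM, higher at MC903 day 9 by 1.89 [1.25, 2.59], and Lgr6 at 53.2, 94.0 and 33.2 CPM, by 1.5 [1.00, 2.03]. Dkk2, the member that helped set A18 apart, was at 1709, 3549 and 3039 CPM and was not called, and the R-spondins were not called except Rspo2, which was lower at MC903 day 9 (24.3 CPM, against 59.8 in untreated skin).

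**Figure D4:**
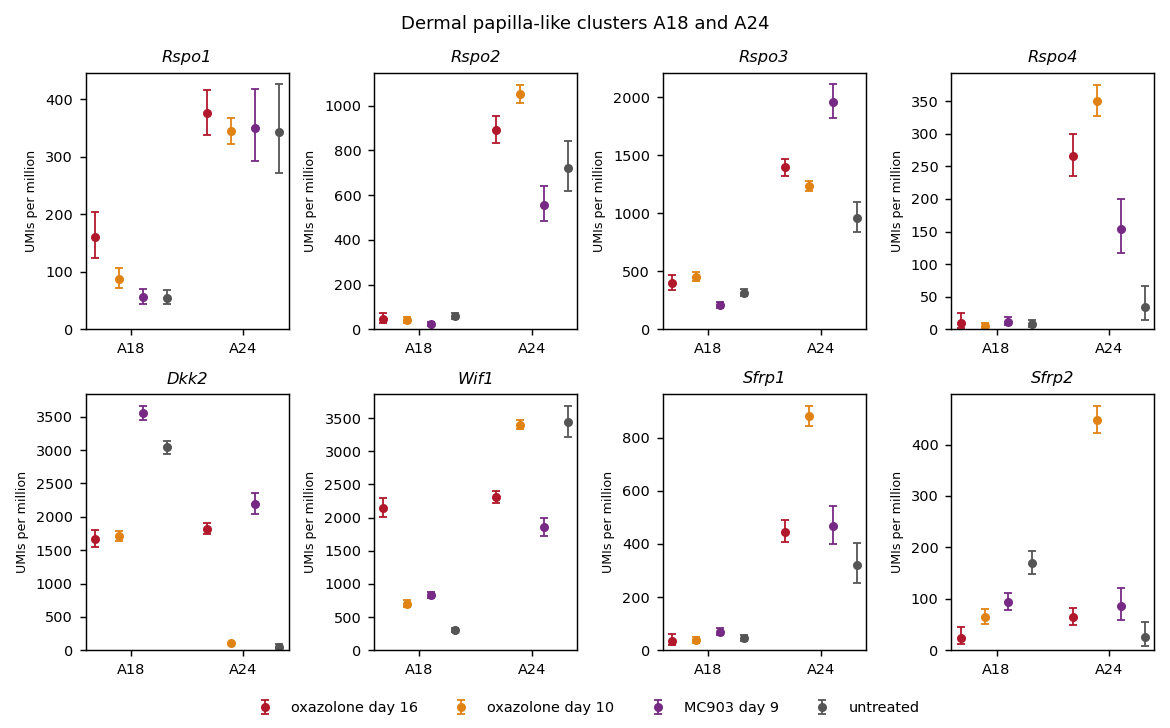
Levels of the 4 R-spondins and 4 inhibitors in the dermal papilla-like clusters A18 and A24 (CPM, 1 point per library, bars are 95% Poisson intervals; A18 had 24 cells at oxazolone day 16, and A24 had 17 at MC903 day 9 and 20 in untreated skin). Rspo1, Rspo2 and Rspo4 points are higher in A24 than in A18 in every library, and Dkk2 in A24 is high at oxazolone day 16 and MC903 day 9.

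In the class as a whole, where A24 made up most oxazolone cells and A18 most others, all 4 R-spondins were higher in both oxazolone libraries. At day 16, 12 members were higher and 3 lower of 30 (6.49% and 11.2% of all genes), at day 10, 12 were higher and 4 lower of 33 (7.63% and 5.68%), and at MC903 day 9, 8 were higher and none lower of 31 (6.81% and 9.22%). Rspo4 was at 191, 245, 43.3 and 11.7 CPM at day 16, day 10, MC903 day 9 and in untreated skin, with ratios of 4.03 [3.36, 4.79], 4.39 [3.73, 5.13] and 1.89 [1.14, 2.70]. Rspo2 was at 646, 741, 142 and 156 CPM, Rspo3 at 1106, 997, 599 and 411, and Rspo1 at 313, 265, 121 and 96.7. Within A18, Rspo4 was at 9.84, 4.43, 11.8 and 7.93 CPM in the 4 libraries, so the class values of Rspo4 rested on A24. Sfrp1 was at 327, 622, 157 and 85.0 CPM in the class and Axin2 at 97.5, 71.3, 70.1 and 33.9 CPM, Axin2 being higher in all 3 treated libraries with ratios of 1.53, 1.07 and 1.05. With coarser clusters the Axin2 ratios at day 10 and MC903 day 9 were 0.84 and 0.92. Between day 16 and day 10 of the class, 4 members were higher and 2 lower of 29 (3.54% and 8.41%), the 2 lower being Sfrp2 and Wnt5b as in A24. Neutrophil markers in the class summed to 3183 CPM at day 16, 326.3 at day 10, 156.7 at MC903 day 9 and 2.463 in untreated skin. Without cells carrying neutrophil markers (20 of 80 at day 16), counts of called members in the class stayed within 1.5 times and no member ratio changed sign. Their part in these values was not tested further.

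Among keratinocyte-like cells, A12 was the cluster with over 50 cells in 3 libraries, 66 at oxazolone day 16, 606 at oxazolone day 10 and 274 in untreated skin. Krt17, Lhx2 and Lgr5 were among its 10 leading genes, and its 9 outer root sheath markers summed to 2600, 3101 and 2841 CPM. Lgr6, Axin2, Apcdd1 and Wif1 were lower at day 16, and Wnt5a was higher at both oxazolone times. At day 16, 4 members were higher and 5 lower of 26 measured (6.74% and 12.5% of all genes), and at day 10, 2 were higher and 1 lower of 31 (8.4% and 5.9%). Between day 16 and day 10, 4 were higher and 10 lower of 30 (4.46% and 13.8%).

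Of the R-spondin receptors in A12, Lgr6 differed between libraries, and Lgr4 and Lgr5 stayed within 2-fold. Lgr5 was at 454 CPM at day 16, 348 at day 10 and 496 in untreated skin and Lgr4 at 460, 469 and 448 CPM, and neither was called. A Lgr5 UMI was found in 50%, 40.6% and 41.9% of thinned A12 cells and in 83.3%, 70.5% and 72.3% without thinning, against 0.170%, 0.115% and 0.0637% of thinned immune cells. Median depths in A12 were 25300, 21341 and 8717 UMIs, and those of immune clusters stand above. Lgr6, which marks upper parts of the follicle, was at 30.3, 193 and 139 CPM, lower at day 16 than in untreated skin by a ratio of -2.19 [-2.62, -1.79] and than at day 10 by -2.67 [-3.07, -2.29].

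Ligands, inhibitors and targets in A12 also differed at day 16. Axin2 was at 3.19 CPM at day 16, 14.4 at day 10 and 27.0 in untreated skin, with a ratio to untreated of -3.08 [-4.57, -1.89] on 6 UMIs at day 16. Apcdd1 was at 6.38, 38.7 and 23.4 CPM (-1.88 [-2.90, -0.98]) and Wif1 at 11.7, 56.5 and 52.9 CPM (-2.18 [-2.90, -1.53]). Each of these was lowest at day 16, although with each cell weighing the same the Apcdd1 ratio was -0.71. For Axin2 the day 10 level also lay below untreated, with a ratio of -0.91 [-1.3, -0.51]. In immune clusters Axin2 was at 1.73, 2.10 and 12.7 CPM, Apcdd1 at 0.572, 2.12 and 2.06 and Wif1 at 2.37, 10.2 and 14.4. Each was thus lowest at day 16 in immune clusters too, and the part of the library in the A12 values was not tested. Sfrp1, a Wnt-binding inhibitor, was at 659, 477 and 294 CPM, higher at day 16 by 1.16 [1.03, 1.29]. Wnt5a was at 13.8, 28.1 and 6.12 CPM, with ratios of 1.17 [0.24, 2.15] at day 16 and 2.20 [1.5, 2.99] at day 10. Wnt5b was at 81.8, 24 and 39.6 CPM, highest at day 16, and Wnt7b, an epidermal ligand, was lower at both times, at 3.19, 8.87 and 18.4 CPM.

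Finer clusters, made from all keratinocyte-like cells and so not a division of A12, also differed in size between libraries. K6, led by Cmah, Fhod3, Tagln, Dhrs9 and Fndc1, had 41 cells at day 16, 132 at day 10 and 21 in untreated skin. K0, led by Cstdc5, Nkain2, Krt79, Postn and Krt6a, had 26, 427 and 28, and K4, led by Tgm5, S100a4, Cdh11, Kcnd3 and Cd34, had 0, 4 and 224. In K6, Lgr6 was at 2.56, 7.09 and 6.11 CPM, and in K0 it was at 68.4, 226 and 137 CPM. Sfrp1 was at 770, 781 and 770 CPM in K6 and 484, 447 and 698 CPM in K0, and in untreated K4 cells it was at 136 CPM. So Sfrp1 was nearly level across libraries in K6, and in neither K6 nor K0 was day 16 above untreated, while in K0 Lgr6 was below untreated at day 16, on 26 cells. Neutrophil markers in A12 summed to 3347, 103 and 0.3602 CPM, and 37.9%, 8.09% and 0% of cells held at least 3 of them. Without those cells 41 remained at day 16, too few for a ratio.

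A17 and A13 were described in 1 library each. A17 carried hair shaft and inner root sheath keratins (Krt35, Krt28 and Krt25 among its leading genes), and its 600 cells at oxazolone day 10 had Znrf3 at 485 CPM, Wnt5a at 206, Wif1 at 173, Wnt4 at 156, Rnf43 at 129, Apcdd1 at 107, Fzd10 at 74.5, Axin2 at 52.6, Wnt10b at 33.7 and Wnt3 at 23.8. The 36 cells of day 16 had Znrf3 at 606 CPM, Wnt5a at 89.0, Wif1 at 35.6, Wnt10b at 40.3 and Wnt3 at 18.7. A13, led by the upper follicle genes Defb6 and Cst6, had in untreated skin Fzd7 at 114 CPM, Wnt4 at 101, Apcdd1 at 81.2, Axin2 at 56.1, Wnt10a at 49.8, Wnt7b at 16.9 and Wnt16 at 11.4.

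For the keratinocyte-like class, which was A12 and A17 in the oxazolone libraries and mostly A13 (74.6%) in untreated skin, 13 members were higher and 8 lower of 34 at day 16 (10.4% and 13.5% of all genes), and 10 were higher and 6 lower of 40 at day 10 (14.5% and 9.41%). Between day 16 and day 10, 6 were higher and 4 lower of 34 (4.91% and 9.71%). Wnt5a was at 41.0 CPM at day 16, 113 at day 10 and 4.24 in untreated skin, a ratio of 3.27 [2.81, 3.75] at day 16 and 4.74 [4.37, 5.14] at day 10, and Wnt10b was at 14.6, 18.2 and 2.56 CPM (2.51 and 2.83). Wnt5a and Wnt10b counts in the oxazolone libraries came largely from A17, of which untreated skin had 4 cells. Lgr5 was higher at day 16 in the class (319 CPM, against 111 in untreated skin; 1.52 [1.40, 1.64]) but not within A12.

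**Figure D5:**
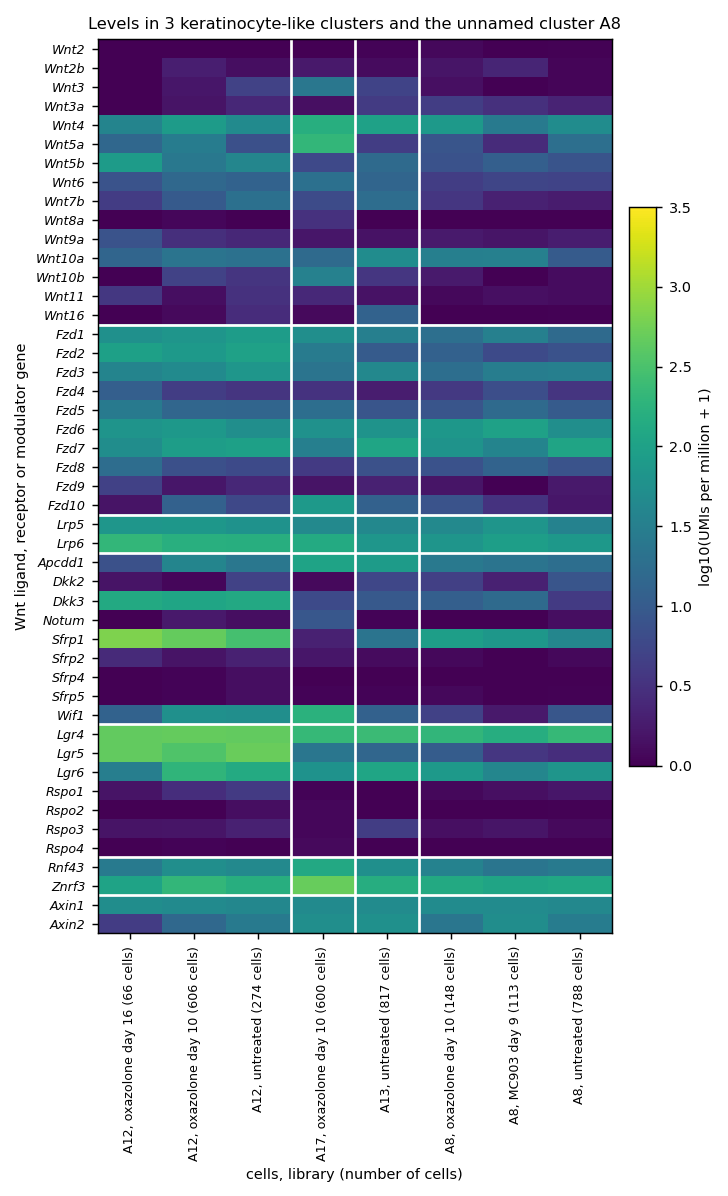
Heat map of the 47 members in 3 keratinocyte-like clusters and cluster A8, in libraries with at least 50 of their cells; colour is log10 of CPM plus 1. Lgr5 and Sfrp1 signal was high in A12, Wnt5a, Wnt10b, Wnt3 and Znrf3 in A17, and Lgr6 was lower at oxazolone day 16 than in the other A12 columns.

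Cluster A8 was left unnamed. Its 7 basal keratinocyte markers summed to 7131 CPM at oxazolone day 10, 2434 at MC903 day 9 and 3772 in untreated skin, but its leading genes held the sebocyte gene Elovl3 and no keratinocyte marker, and its sebocyte markers summed to 2947, 5019 and 5282 CPM. It had 148, 113 and 788 cells in these libraries and 4 at day 16. Wnt10a and Dkk3 were higher in both treated libraries and Wnt5a lower in both. At day 10, 6 members were higher and 3 lower of 29 (7.52% and 8.28% of all genes), and at MC903 day 9, 4 and 4 of 28 (6.42% and 10.9%). Wnt10a was at 31.7 CPM at day 10, 32.3 at MC903 day 9 and 9.27 in untreated skin (1.77 [1.44, 2.10] and 1.80 [1.48, 2.13]). Dkk3 was at 10.3, 15.2 and 2.95 CPM, with ratios of 1.81 and 2.37. Wnt5a was at 7.33, 1.69 and 18.2 CPM, with ratios of -1.31 and -3.43. In immune clusters Dkk3 was at 1.16, 6.05 and 2.43 CPM and Wnt5a at 0.838, 1.36 and 0.589 CPM in the same order. The untreated Dkk3 level and the MC903 Wnt5a level of A8 lay near these, so the sizes of those ratios are uncertain. With 5% free RNA taken off, the day 10 ratio of Dkk3 was 5.39. With each cell weighing the same, the day 10 ratios of Dkk3 and Wnt5a were 0.94 and -0.81, under 2-fold, while both stayed past 2-fold at MC903 day 9. Fzd7 was at 62.0, 36.5 and 110 CPM, lower at MC903 day 9 by -1.59.

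Other genes of the pathway were read from lists outside the symbol rule. Of 12 target genes of beta-catenin, in A7 none of 6 measured was higher and 2 lower at day 16 against untreated (Ccnd1 -1.98 and Nkd1 -1.28), where 9.38% and 10.9% of all genes were called, and at day 10, 3 of 8 were higher and 2 lower (9.58% and 8.22% of all genes). Higher at day 10 were Sp5, at 4.74 CPM against 0.700 in untreated skin, Lef1 (1.93) and 1 other, and lower Bmp4 (-1.59) and Myc (-1.46). In A7 the kinase-like receptor Ptk7, of the beta-catenin-independent list, was at 30.9 CPM at day 16, 101 at day 10, 23.1 at MC903 day 9 and 12.6 in untreated skin, a ratio of 3.01 at day 10. In A12 at day 16, 1 of 7 measured targets was higher (Dlx3 1.47) and 3 lower (6.74% and 12.5% of all genes), among them Lef1, a nuclear partner of beta-catenin, at 7.97 CPM against 76.7 in untreated skin. Porcn, the enzyme that attaches the Wnt lipid, was at 48.9 CPM at day 16, 33.4 at day 10 and 7.2 in untreated A12 cells. Of the modulators in A12 at day 16, none of 7 was higher and 4 lower (again 6.74% and 12.5% of all genes), including Sostdc1 at 21.2 CPM, against 211 in untreated skin. In A24 between day 16 and day 10, 1 of 8 targets was lower (Msx2 -1.26) and none higher (9.84% and 4.62% of all genes). Sostdc1, which binds BMPs and LRP co-receptors, was at 447 CPM at day 16, 1212 at day 10, 156 at MC903 day 9 and 138.5 in untreated skin over the papilla-like class. In the oxazolone libraries that class held more of A24, of which Sostdc1 is a leading gene. Within A18, Sostdc1 was lower at day 10 (30.1 CPM) and MC903 day 9 (30.5 CPM) than in untreated skin (78.6 CPM), with ratios of -1.38 and -1.36. In A14 the osteocyte inhibitor Sost was at 1.33 CPM at day 10, 0.695 at MC903 day 9 and 10.3 in untreated skin.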

How the data were processed

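Skin cells from 4 libraries, 1 per group, were profiled with 10x Genomics 3′ v3.1 chemistry after collagenase digestion and dead-cell removal, per the labels' protocols. The deposited values were raw UMI counts per gene and barcode. Per the file headers they were written by Cell Ranger 7.2.0 (oxazolone day 10, untreated) and 8.0.0 (oxazolone day 16, MC903 day 9), whereas version 8.0 and the mm10 build stand in the submitters' processing notes.

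Barcodes with under 300 genes or over 15% mitochondrial UMIs were left out, and doublets were scored and removed at 0.8% per 1000 barcodes, which took 501 barcodes at oxazolone day 16, 495 at oxazolone day 10, 132 at MC903 day 9 and 475 in untreated skin. Cells were clustered without the members (2000 variable genes, 30 principal components, 15 neighbours, Leiden resolution 1, and 0.5 within keratinocytes) in scanpy 1.11.5 with leidenalg 0.10.2. A cluster was named where at least 3 markers of a set were in 20% of its cells and its 10 leading genes did not go against the name. Counts were summed per cluster and library and scaled to CPM, with exact Poisson intervals for levels, conditional binomial intervals for ratios (scipy 1.17.1) and a confidence level of 95%. Pairs needed 50 cells in each library and 30 UMIs of a gene, and a UMI count of 0 was set to 3 UMIs to give a bound. No test across libraries was possible with 1 library per group.

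Members could all be named. Of other lists, at most the 4 measured genes with the largest absolute log2 ratio per list, unit and pair were named. Members and lists were chosen with earlier results of these data known. Of the members, 2 overlap another gene on the same strand (Rnf43 and Wnt2b), so their counts are uncertain. The call rule was tested on simulated data for fibroblast-like cells at oxazolone day 10 over untreated. It recovered 200 of 200 genes changed 4-fold and called 82 of 13605 unchanged genes. The simulated 4-fold change lies well past the 2-fold limit of the rule, so this recovery says little about smaller changes. Because no group was replicated, the simulation cannot show how often differences between libraries or in cell mix lead to calls.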

Additional observations from a re-analysis of the deposited data

Results flagged for a closer look

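Several members differed in opposite directions in different classes of the same pair of libraries, with the whole counting interval past 2-fold in both, and none of these differences between classes was tested. At oxazolone day 16 over untreated, the log2 ratio of Axin2 was -3.77 in fibroblast-like and 1.53 in dermal papilla-like cells, that of Rspo1 was -3.23 and 1.69, and that of Rspo4 was -3.98 and 4.03. In the same pair Lgr5 was at -1.74 in fibroblast-like and 1.52 in keratinocyte-like cells, Wnt5a at -1.32 and 3.27, and Wnt5b at -1.26 and 1.41. At oxazolone day 10 over untreated, Fzd10 was at -2.67 in fibroblast-like and 2.09 in keratinocyte-like cells and Wnt10b at -2.70 and 2.83, Rspo1 was at -1.77 in fibroblast-like and 1.46 in dermal papilla-like cells, and Rspo3 was at 1.28 in dermal papilla-like and -2.96 in keratinocyte-like cells. Between oxazolone day 16 and day 10, Dkk2 was at -1.91 in fibroblast-like and 1.58 in dermal papilla-like cells. In fibroblast-like cells Fzd10 had 4 UMIs at day 10 and 51 in untreated skin, and Wnt10b had 3 and 39. Rspo4 there had 3 UMIs at day 16 and 88 in untreated skin. In immune clusters Wnt10b was at 0.37 CPM at day 10 and 6.04 in untreated skin. Axin2 in immune clusters was at 1.73 CPM at day 16 and 12.7 in untreated skin. The clusters that make up each class differed between these libraries.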

How the results depend on the processing

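No paired analysis was possible because each group had 1 library. Of 2600 member ratios recomputed under 11 alternatives, 2370 moved by less than their counting interval, 223 moved further and 7 changed sign, and 140 fell under 2-fold. A minimum of 10 or of 100 UMIs changes only which genes are measured. Ratios under those alternatives could not move, and they are counted among the 2370. The sign changed for Wif1 in fibroblast-like cells chosen by markers (-0.04 at oxazolone day 10 and -0.93 at MC903 day 9), for Rspo2 without cells carrying neutrophil markers, an alternative chosen after seeing the data (-0.35 between day 16 and day 10 in fibroblast-like cells, -0.34 for that pair in A7, and -0.62 for day 16 over untreated in A7), for Fzd1 in dermal papilla-like cells at day 10 with coarser clusters (-0.14), and for Dkk2 in A8 at day 10 after 5% free RNA was taken off (3.33). The cause was not tested. Of 216 counts of called members, 201 stayed within 1.5 times. With a minimum of 100 UMIs the count was 5 in dermal papilla-like cells at MC903 day 9, 11, 6 and 6 in A7 at oxazolone day 16, oxazolone day 10 and MC903 day 9, 6 in A14 and 3 in A18 at day 10, and 4 in A12 at day 16 over untreated, since fewer genes were measured. The main counts were 8, 17, 10, 10, 10, 7 and 9 in that order. With a minimum of 10 UMIs the count was 10 in dermal papilla-like cells and 8 in A24 between day 16 and day 10, 15 in A12 at day 16 over untreated and 11 in A12 at day 10. The main counts were 6, 4, 9 and 3. With a mean over cells the count was 17 in A7 and 8 in A18 at MC903 day 9, and 5 in A8 at day 10, against main counts of 10, 5 and 9. Only 8, 4 and 5 of these calls were also main calls, so the called members of A7 at MC903 day 9 depended on cell weighting. With fibroblasts chosen by markers the count was 9 at day 10, against 16. Shares of all genes under these settings are not given here. Leaving out neutrophil-marker cells was not run in A24 or in A12 at day 16, where under 50 cells remained. Depth limits members with few UMIs, and no replicate limits chance differences between libraries.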
